A study of Mus musculus with 6 samples.

Results

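A set of 9 genes that mark the septum and the basal forebrain, regions next to the nucleus accumbens core, were followed in bulk mRNA sequencing of that tissue. The members were chosen by symbol: Zic1, Zic4, Zic2, Zic5, Trpc4, Nkx2-1, Lhx8, Gbx1 and Prdm12. All 9 were found among the 24532 genes of the table, and all 9 passed the filter on low counts that left 15774 genes. The 6 samples came from wild-type male mice that the labels call adolescent, at postnatal days 35 to 55, with 3 samples titled control and 3 titled ethanol. Per the labels, fear conditioning was followed by 6 injections into the peritoneum within 6 h, of ethanol at 20% v/v (1.8 g/kg first, 1.2 g/kg after that), then by extinction trials and 27 days of drinking on alternate days, with tissue taken 24 h later. The treatment field names ethanol exposure in all 6 samples and the protocols do not differ between them, so only the titles tell the groups apart, and what control mice received is not stated. The cell type is given as mixed. No label ties a sample to an animal of its own. The p-values therefore reflect how far these samples vary, and that variation may be technical.

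The ZIC genes encode zinc finger transcription factors of the developing dorsal and medial nervous system, and in the adult forebrain they remain active in the septum. Nkx2-1, a homeodomain factor, specifies the medial ganglionic eminence, the embryonic source of the pallidum, of basal forebrain cholinergic neurons and of many interneurons. Lhx8, a LIM homeodomain factor, acts downstream of it in cholinergic neurons, which also lie scattered through the striatum as interneurons, and Gbx1 is a homeobox gene of the developing basal forebrain. Trpc4 encodes a cation channel that opens downstream of receptor signalling and is abundant in the lateral septum. Prdm12 encodes a PR domain transcriptional regulator best known from pain-sensing neurons.

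The libraries held from 35898026 to 67399599 estimated reads. Control 2 stood apart, with reads for 15924 genes against 17096 to 17707 in the other 5 libraries. Striatal projection neuron markers were present in every library: all 10 of the markers listed passed the filter, and their summed level was 1690 to 3572 CPM (a read count relative to the library's total after TMM scaling). Genes of regions outside the accumbens were present too. Pmch and Hcrt, which encode peptides of lateral hypothalamic neurons, stood at 218 to 764 CPM and at 262 to 376 CPM. Thalamic markers summed to 102 to 259.8 CPM, with 5 of 5 passing the filter. In bulk tissue fewer cells of a type and less RNA per cell cannot be told apart, and the share of neighbouring regions in each dissection was not tested.

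Per length of transcript, the 9 genes covered a wide range of levels. By the deposited FPKM summed over transcripts, Zic1 had the highest mean over the 6 libraries, at 7.87 FPKM, above 57.0% of the genes tested. Zic2 (5.28 FPKM) and Lhx8 (5.21 FPKM) followed, and the ranges of these 3 genes overlapped, at 4.42 to 13.5, 3.26 to 8.70 and 3.48 to 8.81 FPKM. Nkx2-1 and Trpc4 lay lower, at 2.72 and 2.70 FPKM, and did not differ from each other beyond their spread. Prdm12, Gbx1 and Zic4 had means of 0.90, 0.88 and 0.86 FPKM with overlapping ranges. Zic5 was lowest, at 0.24 FPKM, above 6.58% of the genes tested.

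Zic1 and Zic4 lie next to each other on chromosome 9 of the mm10 build, from 91360345 to 91365799 on the minus strand and from 91368972 to 91389348 on the plus strand. Their loci in the table are 3173 bases apart and point away from each other. GENCODE M21 draws longer forms of Zic4 that start at 91362413, inside Zic1, and strand use in the counting is not stated, so reads there cannot be told apart. Zic5 and Zic2 form a second pair of the same layout on chromosome 14, from 122459160 to 122465658 and from 122475384 to 122480328, with 9726 bases between them. Each of the 4 genes has 1 transcript in the table. Of the other members, Trpc4 lies on chromosome 3 from 54156057 to 54318471 (plus), Nkx2-1 on chromosome 12 from 56531935 to 56536908 (minus) and Lhx8 on chromosome 3 from 154306294 to 154330560 (minus). Gbx1 lies on chromosome 5 from 24504426 to 24526848 (minus) and Prdm12 on chromosome 2 from 31640037 to 31655795 (plus). Windows of 250 bases before the start were in the RefSeq promoter table (GRCm38.p6, the same assembly as mm10) for 7 of the 9 genes, with none for Zic2 and Gbx1. For 4 genes the window is shown as far as no GENCODE exon lies in it, to set promoters of ZIC genes, whose levels varied together, beside those of Nkx2-1 and Lhx8, factors of the medial ganglionic eminence. CpG dinucleotides are in capitals, and all are written 5′ to 3′ along the gene's strand, here minus for all 4. They are chr9:91365811-91366018 (Zic1), chr14:122465678-122465908 (Zic5), chr12:56536909-56537158 (Nkx2-1) and chr3:154330660-154330810 (Lhx8).
Zic1: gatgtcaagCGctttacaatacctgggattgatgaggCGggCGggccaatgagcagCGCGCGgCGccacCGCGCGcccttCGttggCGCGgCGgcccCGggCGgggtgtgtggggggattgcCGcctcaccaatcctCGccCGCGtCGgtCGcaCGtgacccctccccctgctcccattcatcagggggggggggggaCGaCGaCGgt
Zic5: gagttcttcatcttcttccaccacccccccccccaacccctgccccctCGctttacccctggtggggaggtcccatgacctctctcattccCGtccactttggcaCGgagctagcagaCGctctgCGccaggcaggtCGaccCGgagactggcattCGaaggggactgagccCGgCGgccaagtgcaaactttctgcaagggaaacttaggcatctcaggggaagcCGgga
Nkx2-1: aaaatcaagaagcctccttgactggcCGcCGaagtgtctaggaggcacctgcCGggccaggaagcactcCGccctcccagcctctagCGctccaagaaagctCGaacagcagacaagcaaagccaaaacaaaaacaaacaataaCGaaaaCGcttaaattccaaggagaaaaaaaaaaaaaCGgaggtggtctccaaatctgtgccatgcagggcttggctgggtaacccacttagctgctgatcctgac
Lhx8: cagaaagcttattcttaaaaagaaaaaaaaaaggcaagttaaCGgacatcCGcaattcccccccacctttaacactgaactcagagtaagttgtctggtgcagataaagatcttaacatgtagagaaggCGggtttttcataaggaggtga
Over the full 250 bases, Zic1 had 27 CpG dinucleotides, more than 91.4% of the 32817 windows of all promoters in the table, whose median was 6. Zic5 had 11, Nkx2-1 had 9, and Zic4 and Lhx8 had 4 each. The Zic4 window lies wholly in exons of longer GENCODE forms of Zic4, while 42 bases of the Zic1 window are exonic, so the windows of these neighbours are not alike in kind. Searched on both strands, CAAGTG, a core bound by NKX2 factors, was met once in Zic4 and once in Zic5 and in none of the other 5 windows, against 11.6% of all windows. TATAAA was met in Trpc4 alone among the 7, on the strand opposite to the gene, against 12.4% of all windows. A homeodomain core, TAATTA (4.85% of all windows), a ZIC core, CAGCAGG (8.45%), and a GLI core, GACCACCCA (0.225%), were met in none of the 7, which says only that these letters are not in the windows.

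The question of the group comparison was which of these genes differed between ethanol and control. In the ZIC family the ethanol means were higher, but the groups overlapped in all 4 genes. Zic1 stood at 24.6, 19.8 and 34.7 CPM in control 1, 2 and 3 and at 40.4, 18.7 and 54.4 CPM in ethanol 1, 2 and 3. Ethanol 3 and ethanol 1 were the highest libraries and ethanol 2 the lowest, below every control. The means were 26.4 ± 7.62 and 37.8 ± 17.9 CPM (SD, n = 3 each), and the log2 fold change was 0.52 (SE 0.35). Its 95% interval ran from -0.27 to 1.31, with an adjusted p of 0.60 by edgeR's quasi-likelihood test. The log2 fold change was 0.17 without ethanol 3 and 0.83 without ethanol 2.

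Zic4, the divergent neighbour of Zic1, stood at 3.73, 1.64 and 3.94 CPM in control and 4.99, 2.51 and 9.07 CPM in ethanol. The order of the libraries was nearly that of Zic1, with ethanol 3 at the top and control 2 at the bottom. Its log2 fold change was 0.83 (95% interval -0.24 to 1.90), which was 0.28 without ethanol 3. Zic2, in which loss of function disturbs forebrain midline formation, stood at 16.2, 12.4 and 22.99 CPM in control and 19.3, 12.3 and 31.0 CPM in ethanol. The groups overlapped, with ethanol 2 and control 2 lowest and ethanol 3 highest, and the log2 fold change of 0.28 was -0.12 without ethanol 3. Zic5, the neighbour of Zic2, had 23, 0 and 12 reads in control and 80, 12 and 71 in ethanol, or 0.40, 0 and 0.33 against 1.27, 0.29 and 1.91 CPM. In control 2, 3 reads would be 0.078 CPM. Ethanol 2 lay among the controls, and the log2 fold change of 2.21 had an interval from -0.02 to 4.44.

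Trpc4 and Gbx1 were the genes in which the 3 ethanol libraries lay above the 3 control libraries, 2 of the 9 members, where 9.35% of all genes tested did so. The reverse order, ethanol below control, was met in 0 members and 8.41% of all genes. Gbx1 stood at 0.90, 0.94 and 1.15 CPM in control and 1.94, 2.65 and 1.96 CPM in ethanol, from 36 to 122 reads per library. The controls lay close together and the lowest ethanol library was well above them. The means were 0.995 ± 0.13 and 2.19 ± 0.41 CPM (SD, n = 3 each), and the log2 fold change was 1.13 (SE 0.35, 95% interval 0.35 to 1.92). The unadjusted p was 0.00961 and the adjusted p 0.43 in edgeR's test over all genes. With each library left out in turn the log2 fold change was 0.96 to 1.24, the narrowest such range of the 9 genes.

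Trpc4 stood at 8.99, 9.28 and 8.12 CPM in control and 12.2, 9.84 and 17.8 CPM in ethanol. The gap between the groups was narrow, since ethanol 2 lay just above control 2, and ethanol 3 was far above the rest. The means were 8.80 ± 0.60 and 13.3 ± 4.08 CPM (SD, n = 3 each), with a log2 fold change of 0.59 (SE 0.24), an unadjusted p of 0.0341 and an adjusted p of 0.45 in edgeR, and the fold change was 0.33 without ethanol 3. Trpc4 has 4 transcripts in the table, and their shares of its estimated reads differed from library to library. NM_016984 held 57.1%, 28.0% and 0% of the gene's reads in control 1, 2 and 3 and 48.5% to 55.8% in ethanol, while the noncoding NR_046161 held 0%, 0% and 33.3% in control and 7.43%, 13.1% and 23.2% in ethanol. Taken alone, NM_016984, the transcript with most reads, gave a log2 fold change of 1.43 (adjusted p = 0.59, edgeR). NM_001253682 had nearly as many reads over all libraries, 1262 against 1374, and its share went the other way. It held 42.5%, 72.0% and 66.7% in control and 36.4%, 38.4% and 23.1% in ethanol, and was not tested alone.

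Among the factors of the medial ganglionic eminence, Nkx2-1 was the steadiest gene within controls, at 7.98, 7.98 and 8.37 CPM. In ethanol it stood at 10.7, 13.2 and 8.29 CPM, so that ethanol 2 was highest and ethanol 3 lay among the controls. Its log2 fold change was 0.41 (95% interval -0.09 to 0.90), which was 0.22 without ethanol 2. Nkx2-1 overlaps an antisense gene model in GENCODE, as does Prdm12, and without stated strand use reads of the 2 strands cannot be told apart. Lhx8 stood at 10.2, 13.7 and 11.8 CPM in control and 9.08, 22.1 and 8.56 CPM in ethanol. Ethanol 2 was the highest library and the other ethanol libraries were the lowest of all 6, and the log2 fold change of 0.16 (SE 0.35) was -0.44 without ethanol 2. Prdm12 stood at 3.11, 1.51 and 2.76 CPM in control and 3.44, 2.02 and 3.49 CPM in ethanol. Its groups overlapped, and the log2 fold change of 0.28 was 0.03 without control 2.

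**Figure D1:**
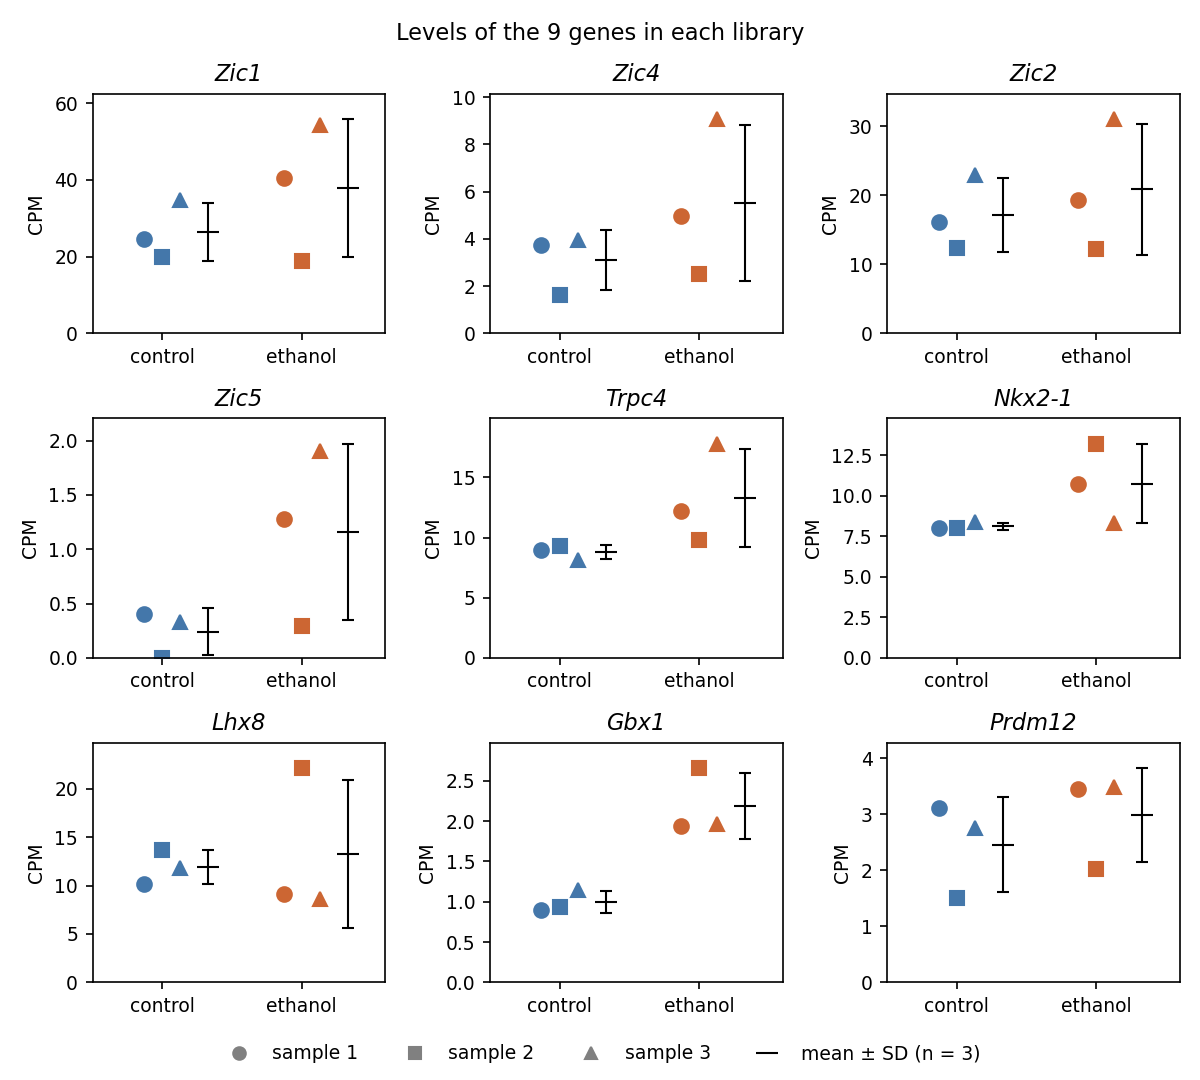
CPM of the 9 genes in each library (y axes start at 0), with blue for control and orange for ethanol, a marker shape per sample number, and the mean ± SD of the 3 samples beside each group. Gbx1 and Trpc4 are the genes without overlap of the groups, and ethanol 2 is low for ZIC genes and high for Lhx8.

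By edgeR's quasi-likelihood test, 0 of the 9 members passed an adjusted p of 0.05, as did 0% of the 15774 genes in either direction, and no gene had an adjusted p below 0.41. Before adjustment 2 members, Gbx1 and Trpc4, had a p under 0.05, both higher in ethanol, as had 10.7% of all genes in either direction and 5.31% with higher values in ethanol. DESeq2 called 0.323% of all genes higher and none of the 9 members. All 9 members had a log2 fold change above 0, with a median of 0.52, while 52.7% of all genes were above 0 and their median was 0.02. Without ethanol 2 the count was 8 of 9 and the median 0.76, without ethanol 3 it was 8 of 9 and 0.33, and without control 2 it was 9 of 9 and 0.40. The members were proposed with results of this comparison known, so this count is a description and no support for a direction. Striatal projection neuron markers had a like direction, with 9 of 10 above 0, a median of 0.42 and 0 passing. Drd2, a dopamine receptor gene named after its values were seen, stood at 23.3, 25.3 and 20.9 CPM in control and 55.1, 35.8 and 35.6 CPM in ethanol, without overlap (log2 fold change 0.86, adjusted p = 0.42 by edgeR). The part of the tissue's make-up in the members' direction was not tested.

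**Figure D2:**
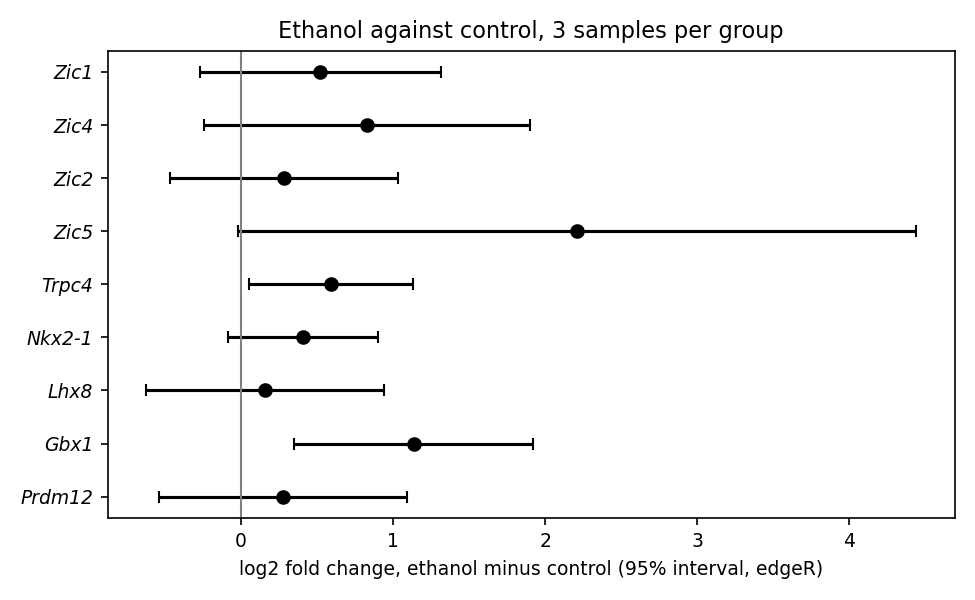
Log2 fold change of each gene, ethanol minus control, with the 95% interval from edgeR over 3 samples per group. The intervals of Gbx1 and Trpc4 lie above 0, those of the other 7 genes include 0, and none of the 9 passed the adjusted threshold.

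Across the 6 libraries the levels of the ZIC genes varied together. The 6 pairs among them had a Pearson r of log2 CPM from 0.75 (Zic2 and Zic5) to 0.96 (Zic1 and Zic2), with a median of 0.92, and a Spearman rho of 0.77 to 0.94. The neighbours Zic1 and Zic4 had an r of 0.93 (exact permutation p = 0.00556), Zic4 and Zic5, on different chromosomes, an r of 0.93, and the neighbours Zic2 and Zic5 the lowest r of the 6. Adjusted over all 36 pairs of members, the exact permutation p of these pairs lay between 0.0667 and 0.214, and none of the 36 pairs was under 0.05, where 10 were so before adjustment. The smallest adjusted p was 0.05, of Zic5 and Prdm12, from the smallest p of 0.00139 that the pairings of 6 libraries allow. Without the 2 libraries farthest from the median, r was 0.75 to 0.88 in the 6 ZIC pairs. With each group's mean subtracted it was 0.80 to 0.97, without control 2 it was 0.70 to 0.95, and without ethanol 3, the library that lowered it most, 0.60 to 0.94. Among the 15773 other genes ranked by r with Zic1, Zic2 was number 11, Zic4 number 30 and Zic5 number 391. By r with Zic5, Zic4 was number 72, Zic1 number 511 and Zic2 number 910. Each of these correlations rests on 6 points, and every gene of a point shares that library's preparation and depth.

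Prdm12 followed the ZIC genes, with an r of 0.91 with Zic4 and 0.93 with Zic5 and of 0.78 to 0.93 over all 4. Control 2 was the lowest library for Zic4, Zic5 and Prdm12, and it is also the library with the fewest genes detected, whose part in these values was not tested beyond leaving it out. Without it Prdm12 had an r of 0.73 to 0.83 with the 4 genes. Trpc4 had an r of 0.62 to 0.75 with the ZIC genes, which rested on ethanol 3: without that library r was -0.08 to 0.49.

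Lhx8 ran against the ZIC genes, with an r of -0.81 with Zic1, -0.75 with Zic2, -0.72 with Zic4 and -0.55 with Zic5. For Zic1 and Lhx8 the exact permutation p was 0.0389 and 0.165 adjusted over the 36 pairs, the Spearman rho was -0.94, and r was -0.70 without the 2 farthest libraries. The sign held for the 4 pairs in every fit that left out 1 library, at -0.96 to -0.40. Nkx2-1 and Gbx1 had an r of 0.83 (exact permutation p = 0.0111, adjusted 0.0667), which was 0.69 without the 2 farthest libraries. Nkx2-1 and Lhx8 had an r of 0.61 that became -0.47 without ethanol 2, and Lhx8 and Gbx1 one of 0.27 that became -0.79, so both rest on that library. Nkx2-1 had an r of -0.37 to 0.19 with the ZIC genes, and of -0.79 (Zic1), -0.75 (Zic4), -0.77 (Zic2) and -0.50 (Zic5) with each group's mean subtracted. Gbx1 had a positive r with each ZIC gene, from 0.13 (Zic2) to 0.55 (Zic5). Without ethanol 2, r with the ZIC genes was 0.72 to 0.91 for Gbx1 and 0.14 to 0.49 for Nkx2-1. Of the 12 pairs of a ZIC gene with Nkx2-1, Lhx8 or Gbx1, 5 had an r above 0. With the group means subtracted these 12 pairs were all negative, at -0.88 to -0.30. The sign for Gbx1 with each ZIC gene, and for Nkx2-1 with Zic5, therefore depends on the subtraction. Leaving out ethanol 2 changed the sign of Nkx2-1 with Zic1, Zic4 and Zic2, but of Gbx1 with no ZIC gene. Zic2 and Gbx1 had an r of -0.15 without control 2 and -0.16 without ethanol 3. Nkx2-1 had one of -0.20 with Zic5 without control 2 and of 0.09 with Zic4 without ethanol 3.

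**Figure D3:**
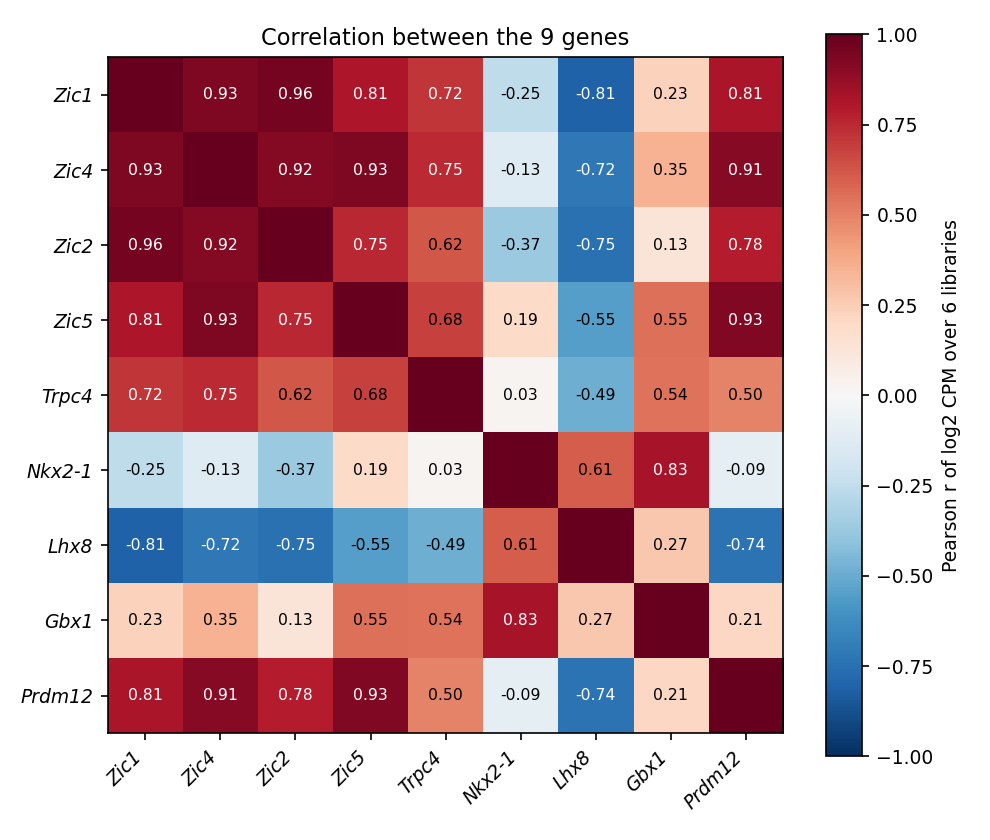
Pearson r of log2 CPM over the 6 libraries for each pair of the 9 genes, on a colour scale from -1 (blue) to 1 (red). The ZIC genes and Prdm12 form a block of 0.75 to 0.96, and Lhx8 is negative with each of them.

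**Figure D4:**
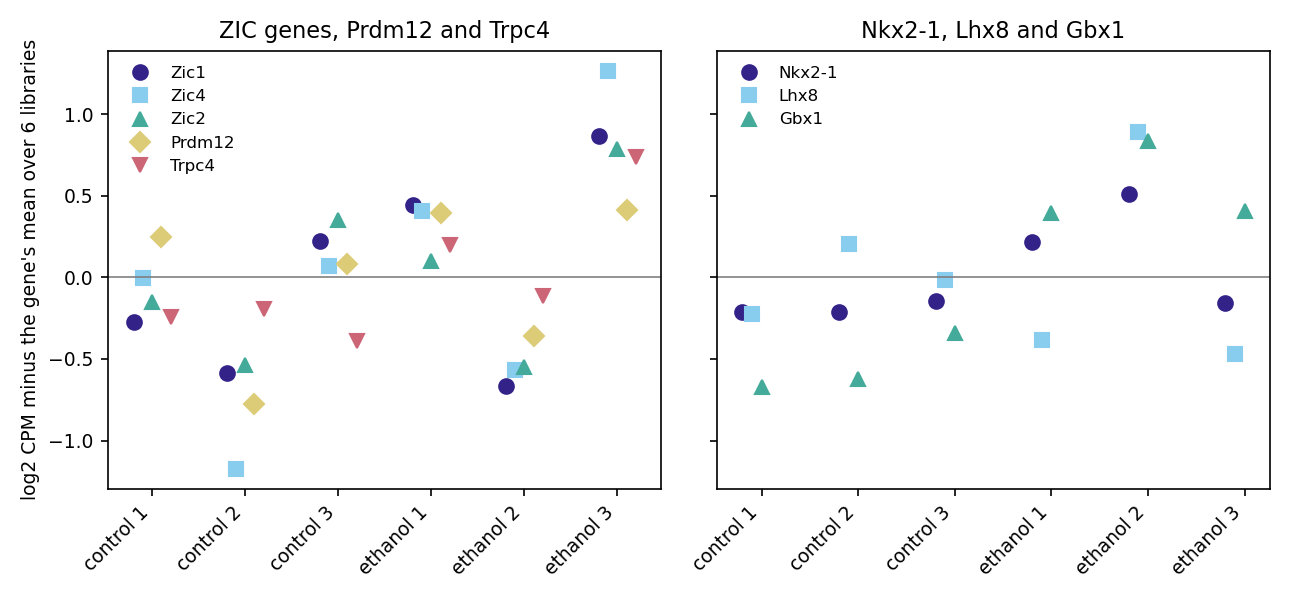
Log2 CPM of each gene minus its mean over the 6 libraries, by library, with ZIC genes, Prdm12 and Trpc4 on the left and Nkx2-1, Lhx8 and Gbx1 on the right (Zic5 is left out for its wide range). Ethanol 3 is highest on the left, and ethanol 2 is below the mean on the left, Trpc4 the least, and highest on the right.

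Ethanol 2 and ethanol 3, the libraries at the ends of these patterns, also differed in markers of other cells. Ethanol 2 had the highest summed level of striatal projection neuron markers, 3572 CPM against 1690 to 2088 CPM in the other 5 libraries. This sum is dominated by Penk, an opioid peptide gene, at 1423 CPM against 533 to 726, and by Ppp1r1b, at 1156 CPM against 486 to 669. Pde10a, at 129 CPM against 101 to 214, and Drd2, at 35.8 CPM against 55.1 in ethanol 1, were the listed markers not highest in ethanol 2. Ethanol 2 had the lowest sum of thalamic markers, 102 CPM against 164 to 259.8, with Slc17a6, the vesicular glutamate transporter gene of subcortical neurons, at 51.9 CPM against 75.7 to 122. Ethanol 3 had the highest thalamic sum. The part of these differences in the ZIC and Lhx8 values was not tested.

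Other genes of the septum did not form a common direction. Of 8 listed, all passed the filter, 4 had a log2 fold change above 0 and 4 below, 0 passed in either direction, and the median was 0.15. Their summed level, 126 to 154 CPM in control and 139 to 146 CPM in ethanol, did not repeat the order of the ZIC genes. This sum is mostly that of Six3 and Nts, so it says little about the other genes of the list. Six3, a homeobox gene of the ventral forebrain, stood at 47.4 to 84.1 CPM in control and 59.9 to 62.1 CPM in ethanol. Nts, the neurotensin gene, stood at 35.5 to 40.8 and 20.6 to 43.3 CPM. Prdm16, a PR domain factor, stood at 15.0 to 19.5 and 17.5 to 24.9 CPM, and Htr1a, a serotonin receptor gene, at 9.05 to 12.4 and 10.2 to 19.5 CPM. Both were highest in ethanol 1 and ethanol 3, as Zic1 was.

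Cholinergic neuron genes, which share their neurons with Lhx8 and Gbx1, had a log2 fold change above 0 in 7 of 7, with a median of 0.37 and 0 passing. Their sum was 305 to 323 CPM in control and 309.5 to 409 CPM in ethanol, with ethanol 3 among the controls. It is dominated by Ache, the acetylcholine-degrading enzyme, at 245 to 259.7 and 243 to 334 CPM. Ngfr, the low-affinity neurotrophin receptor gene of basal forebrain cholinergic neurons, stood at 8.78 to 27.2 and 16.1 to 30.6 CPM. Isl1, a LIM homeodomain factor, stood at 11.4 to 15.8 and 13.2 to 15.5 CPM, and the choline transporter gene Slc5a7 at 6.40 to 12.8 and 6.42 to 13.0 CPM. Chat, the enzyme of acetylcholine synthesis, named after its values were seen, was like Gbx1 in having no overlap, at 5.68, 9.38 and 5.44 CPM in control and 14.4, 13.3 and 10.9 CPM in ethanol (log2 fold change 0.92, SE 0.26, adjusted p = 0.42 by edgeR). The vesicular acetylcholine transporter gene Slc18a3, also named afterwards, was highest in ethanol 2, at 20.4 CPM against 4.91 to 9.62, as Lhx8 was.

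Genes of the medial ganglionic eminence lineage and the pallidum had a median of 0.16, with 6 of 9 above 0 and 0 passing. Lhx6, a LIM homeodomain factor downstream of Nkx2-1 in interneurons, stood at 27.2 to 35.0 and 30.5 to 34.3 CPM. Pvalb, a calcium buffer of fast-spiking neurons, was 332 CPM in control 3 and 118 to 237 CPM elsewhere. Etv1, an ETS transcription factor gene, had a log2 fold change of -0.05. Relatives of the members by gene family had a median of 0.04, with 11 of 21 above 0 and 0 passing.

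Markers of other tissue near the accumbens had their own order of libraries. Meningeal fibroblasts, in which Zic1 is also active, had 12 of 12 markers with a log2 fold change below 0, a median of -0.61 and 0 passing. Before adjustment in edgeR 4 of these markers had a p under 0.05, as had 10.7% of all genes tested. The meningeal sum was 62.8 to 112 CPM in control, highest in control 2, and 49.2 to 57.8 CPM in ethanol. In ethanol 3 and ethanol 1, the libraries with most Zic1, it was 56.5 and 57.8 CPM, and in ethanol 2, the library with least Zic1, it was lowest, at 49.2 CPM. The part of meningeal tissue in the Zic1 values was not tested. Igf2, the growth factor gene that leads this list, stood at 22.1 to 45.8 and 20.0 to 23.5 CPM. Preoptic and hypothalamic markers summed to 949 to 1243 CPM in control and 589 to 809 CPM in ethanol, mostly through Pmch, with 7 of 10 above 0, a median of 0.14 and 0 passing. Thalamic markers had a median of -0.36 with 4 of 5 below 0, and cortical excitatory markers one of -0.55 with 6 of 7 below 0 (1 more did not pass the filter), and 0 passed in either list. The cortical sum was 107 to 371 CPM in control and 37.5 to 110 CPM in ethanol, with 3 cortical markers under 0.05 before adjustment in edgeR. Within it Slc17a7 stood at 58.2 to 289 and 9.42 to 56.0 CPM, while Cux2 overlapped, at 30.4 to 38.5 and 17.4 to 46.0 CPM. Choroid plexus and ependyma markers summed to 458 CPM in control 3 and 47.0 to 68.1 CPM in the other libraries, with a median of 0.09. The high sum came mostly from 1 gene, Ttr, at 394 CPM in control 3 and 0.73 to 4.63 CPM in the other libraries. None of the listed markers was at 0 in all 6 libraries. Before adjustment in edgeR, the striatal, the preoptic and hypothalamic, and the choroid plexus and ependyma lists had 2 genes each under 0.05. The cholinergic and the medial ganglionic eminence lists had 1 each, and the septal, family and thalamic lists had 0.

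**Figure D5:**
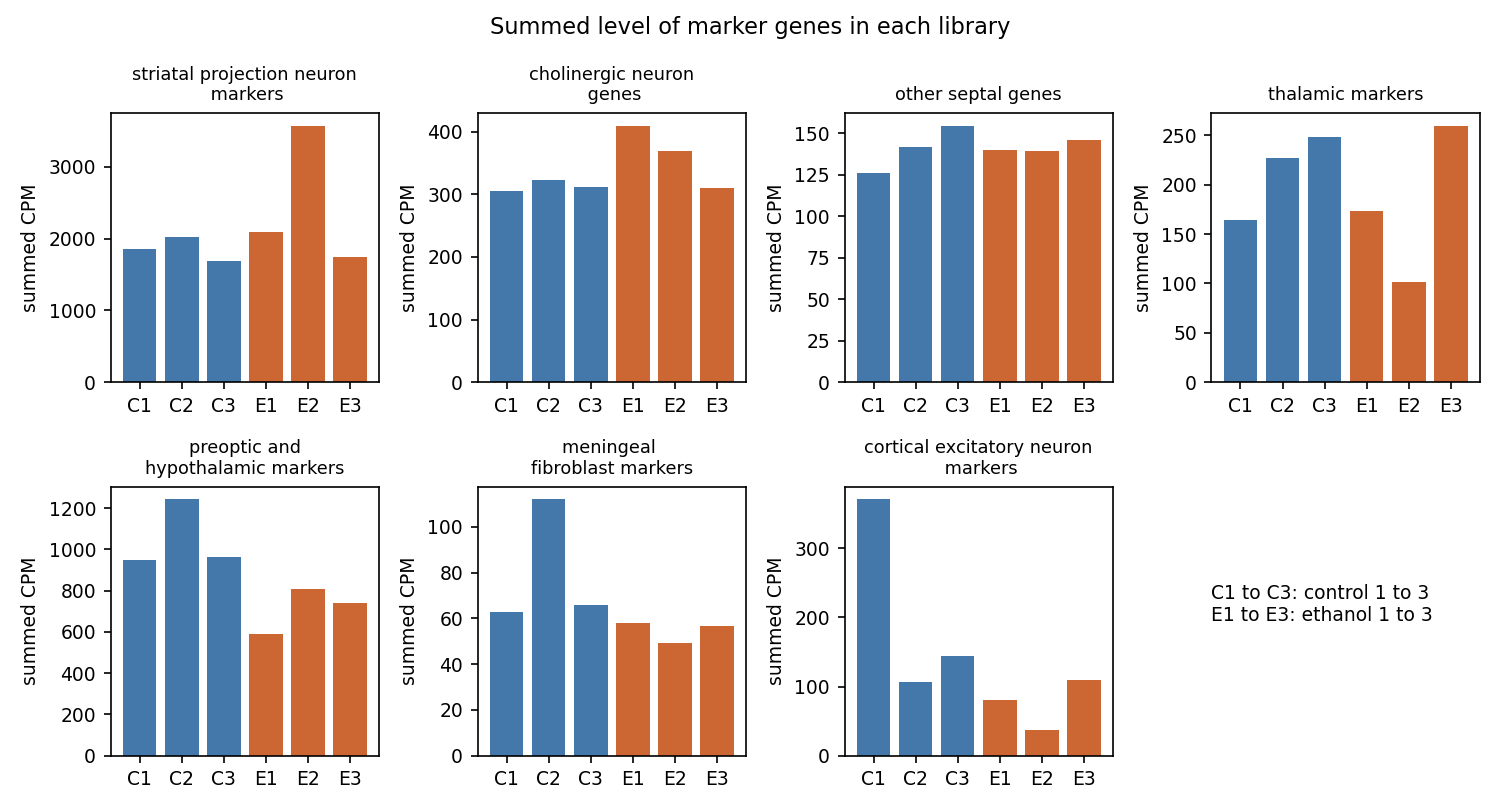
Summed CPM of 7 marker lists in each library (bars from 0, blue for control and orange for ethanol). Ethanol 2 is highest for striatal projection neuron markers and lowest for thalamic and cortical ones, and control 2 is highest for meningeal fibroblasts.

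The genes whose pattern over the 6 libraries was most like each member's were found among the 12589 or 12590 other named genes with a mean log2 CPM of at least 1. Near Zic1 these were Kif16b, a kinesin gene (r 0.997), Myo3b, a myosin gene (0.97), and Vezf1, a zinc finger factor gene (0.97), and Vezf1 was also nearest to Zic2 (0.988). Klf11 was nearest to Zic4 (0.982). Dlx1, a homeobox gene of forebrain inhibitory neurons, was the second nearest (0.981), at 28.4 to 36.1 CPM in control and 34.3 to 44.6 CPM in ethanol. Rfx2 (0.988) and the serotonin receptor gene Htr7 (0.986) were nearest to Trpc4, and Ift52 (0.989) and Hspa9 (0.985) to Gbx1. Ppp1ca, a protein phosphatase subunit gene, was nearest to Nkx2-1 (0.997), Prkrip1 to Lhx8 (0.993), Aldh3b2 to Zic5 (0.995) and Tubgcp4 to Prdm12 (0.995). Each of the 9 genes had at least 1 such gene at an r of 0.98 or more, over only 6 points, and these r are a description. The spread could be much smaller than the member's, as in Kif16b, which ran from 6.91 to 11.8 CPM where Zic1 ran from 18.7 to 54.4 CPM.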

How the data were processed

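The table the authors deposited gives estimated read counts and FPKM for each RefSeq transcript in each library, per the file headers. Build mm10 and bcl2fastq are named in the submitters' processing notes. For aligner, counter and strand use, the sources used here give nothing. The deposited counts are expected counts: from FPKM, transcript length and 1 constant per library, 99.6% to 99.8% of the values from 5 to below 2000 reads came out as that product rounded up (tolerance 0.05), which adds up to 1 read per transcript. They are whole numbers and were used as deposited. The 36780 transcripts were summed to 24532 genes by gene identifier.

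Genes were filtered with filterByExpr (minimum count 10), scaled with TMM and tested in R 4.3.3 by edgeR 4.0.16 (quasi-likelihood test) on a design holding group alone, with Benjamini-Hochberg adjustment over 15774 genes (threshold 0.05, two-sided). The standard error is the log2 fold change over the square root of F, and the 95% interval uses the test's degrees of freedom. Correlations use log2 CPM (prior count 2), with exact two-sided permutation p over all pairings. Deposited FPKM served to compare levels between genes. Depth was 35898026 to 67399599 reads, where 3 reads are 0.0478 to 0.082 CPM, for counting error only. The members and gene lists were chosen with earlier results of these data known. Named genes were the 9 members, up to 3 genes most like each by r (mean log2 CPM at least 1, unnamed gene models left out) and up to 4 members of each list with the highest mean, with exceptions marked in the text, and some genes of the lists are not reported here by name. DESeq2 1.42.0, limma 3.58.1 (voom), other scalings and filters, a replicate block and fits without each library were alternatives. The gene test was checked on simulated data. Promoter windows are from RefSeq. Figures were drawn with matplotlib 3.10.9.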

Additional observations from a re-analysis of the deposited data

How the results depend on the processing

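Under the alternatives, 123 fold changes of members kept their direction and 2 did not, none passed the threshold, and in the 16 pairs of members run under every alternative 142 correlations kept their sign and 2 did not. Over all 36 pairs, 11 changed sign in at least 1 fit without a library, 7 of them pairs with Nkx2-1, and Zic2 and Trpc4, Zic2 and Gbx1, Gbx1 and Prdm12, and Lhx8 and Gbx1 were the others. Without ethanol replicate 3 the log2 fold change of Zic2 was -0.12. Without ethanol replicate 2 that of Lhx8 was -0.44, and r was -0.47 for Nkx2-1 and Lhx8 and -0.79 for Lhx8 and Gbx1. With each library left out in turn, the ranges were -0.12 to 0.54 for Zic2, -0.44 to 0.39 for Lhx8, -0.47 to 0.86 for the first pair and -0.79 to 0.50 for the second. The cause was not tested. No gene was called in the edgeR fit of all libraries (1681 at an unadjusted p under 0.05), in limma-voom or with other scalings and filters. DESeq2 called 51 genes higher and 94 lower. Leaving out a library gave 0 to 201 genes higher and 0 to 10 lower, with 201 and 10 without ethanol replicate 2 and 1 higher without control replicate 1. The log2 fold change of Prdm12 ran from 0.03 without control 2 to 0.49 without control 1. The smallest adjusted p of any member in any fit was 0.0874, for Trpc4 without ethanol 2. With total counts only the median of all genes was -0.06 in place of 0.02, and all 9 members stayed above 0. Zic5 failed the stricter filter (1 CPM in 3 libraries) and has no value there.

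The replicate block, which takes the sample number as a pair, called 0 genes and gave log2 fold changes of 1.13 for Gbx1 and 0.55 for Trpc4. The numbers share no stated litter or day. Deviations from the group means correlated across genes at 0.146, -0.031 and -0.0173 between same-numbered libraries, and at -0.217 to 0.188 between the other pairs. Deviations within a group of 3 depend on each other, so these values cannot decide whether a number marks a shared batch. Depth limits Zic5 and Gbx1 most, with 0 to 80 and 36 to 122 reads per library.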
